A study of Homo sapiens with 12 samples.

Results

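SW480 cells that ectopically expressed the CD44v6 isoform (CD44v6-OE) were compared with parental SW480 cells across all genes, using 4 of the 12 RNAseq libraries in the series. The members were chosen by label alone: 2 libraries named for SW480 and CD44v6 and 2 named for parental SW480. SW480 is a human colon adenocarcinoma line of the chromosomal instability type, and the other line of the series, HCT116, is a colon cancer line with microsatellite instability. Both lines were cultured as parental cells, as cells ectopically expressing the standard isoform (CD44s-OE) or as CD44v6-OE cells, with 2 libraries for each. Cells carrying the stably integrated plasmids were kept under Geneticin selection, the column headers name the SW480 CD44v6-OE cells as pools, and the controls are labelled parental, with no empty-vector library analysed here, so that transfection, selection and the isoform itself cannot be told apart in this comparison. Nothing in the sources used here says that the 2 libraries of a group came from separate transfections, so the p-values measure the spread between these libraries, which may be technical. Of 62426 annotated genes, 17539 had enough counts in the 6 SW480 libraries to be tested.

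CD44 is a transmembrane receptor for hyaluronan, a sugar polymer of the extracellular matrix. Its pre-mRNA carries a block of variable exons in the part that encodes the extracellular stem. The standard isoform skips all of them, and CD44v isoforms keep 1 or more. CD44v6, the isoform with the sixth variable exon, is known as a co-receptor for growth factor receptors such as MET and as a marker of intestinal stem and tumor cells. ESRP1, an epithelial RNA-binding protein, is known to favour inclusion of the variable exons.

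The exon that sets the transgene apart lies in CD44 on the plus strand of chromosome 11, at chr11:35226059-35226187 (hg19), and is 129 bases long. Both CD44v6 RT-qPCR primers match it. It is contained in 6 of the 38 annotated CD44 transcripts. It is shown because the CD44v6 isoform is named for it, and the capitals mark the bases covered by the primers. The insert of the CD44v6 plasmid was not examined.
CD44 exon v6: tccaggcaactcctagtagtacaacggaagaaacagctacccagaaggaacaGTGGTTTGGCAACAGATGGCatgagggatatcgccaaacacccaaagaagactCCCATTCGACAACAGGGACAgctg

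The deposited counts are summed over whole genes, so the exon itself was not measured here and reads of the transgene and of the endogenous gene fall into 1 CD44 value. CD44 (chr11:35160429-35253949) was at 188 and 163 CPM in parental cells, at 131 and 146 CPM in the libraries labelled CD44v6-OE, and at 179 and 204 CPM in CD44s-OE, where CPM is the count scaled to library size and composition. The CD44v6-OE libraries were thus the lowest of the 3 groups and did not overlap with parental, with a mean of 138 ± 10.3 CPM against 176 ± 17.4 CPM (SD, n = 2 each). The difference of -0.34 ± 0.16 (log2 fold change ± SE) did not pass the test (adjusted p = 0.575). Adjusted p-values here are from edgeR's quasi-likelihood test with Benjamini-Hochberg adjustment over all tested genes, and a gene was called where the adjusted p was under 0.1 and the log2 fold change over 1.5 in either direction. At the level of the whole gene, the libraries labelled CD44v6-OE thus did not carry more CD44 RNA than parental cells, and the labels are used below as given. The study itself assessed CD44v6 in its CD44v6-OE cells of both lines by RT-qPCR relative to constitutive CD44 exons, and by western blot. A whole-gene count measures neither the share of an isoform nor protein, so it cannot be set against those assays.

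The gene on the other strand of the locus did separate the groups. CD44-AS1 (chr11:35231890-35236532, minus strand) is a long non-coding RNA gene with 2 exons. It received 154 and 177 counts in the CD44v6-OE libraries, 1 and 0 in parental, and 3 and 0 in CD44s-OE. Counted as read pairs, CD44v6-OE was 168 times the parental level, with a 95% exact interval for counting error of 29.8 to 6690. CD44-AS1 passed the test against parental (adjusted p = 0.00329) and against CD44s-OE (adjusted p = 0.00154). The HCT116 libraries gave the same order: CD44v6-OE held 1.87 and 2.29 CPM and the others none. The second exon of CD44-AS1 covers a whole 63-base exon of CD44 on the opposite strand, and 84 of its 587 exonic bases (14.3%) are shared with CD44 exons. The shared stretch at chr11:35236378-35236461 (hg19, plus strand) is shown because the files give only gene totals and cannot say which bases of CD44-AS1 the reads came from. The capitals mark the CD44 exon.
CD44 and CD44-AS1: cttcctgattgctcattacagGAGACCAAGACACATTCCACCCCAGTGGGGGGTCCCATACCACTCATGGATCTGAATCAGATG

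Total counts ran from 43102156 to 51038512 in the SW480 libraries. Both reads of a pair appear to have been counted, so that 6 counts (3 pairs) per library are the most that a count of 0 allows, which corresponds to 0.118 to 0.139 CPM, and this floor and the intervals cover counting error only. Of the genes at a mean of at least 10 CPM, 240 of 8976 differed over 2-fold between parental 1 and 2, and 18 of 9032 did so between the CD44v6-OE replicates. Of the 10 colon epithelium markers examined, KRT20, LGALS4 and CEACAM5 stayed under 0.5 CPM in every SW480 library, while EPCAM and KRT8 were abundant. Markers of other cell types were partly under 0.5 CPM in every SW480 library, among them COL1A2, COL3A1 and DCN for fibroblasts (6 of 10 in all), PTPRC, CD3D and CD3E for leukocytes (6 of 11), CDH5 and KDR for endothelium (5 of 7) and RBFOX3, MAP2, NEFL and NEFM for neurons (4 of 10). Among the markers with enough counts to be tested, 5 of 5 for leukocytes, 6 of 7 for neurons and 3 of 4 for fibroblasts had a log2 fold change above 0 between CD44v6-OE and parental, with medians of 1.86, 1.69 and 0.55, and 2, 2 and 1 of them were called higher. Their part in the results below was not tested.

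RNA typical of HCT116 was found in transfected SW480 libraries, and its amount differed between CD44v6-OE 1 and CD44v6-OE 2. After the data had been seen, 25 genes were taken that exceeded 20 CPM in all 6 HCT116 libraries and stayed under 0.1 CPM in both parental SW480 libraries. Their summed level was 39.4 CPM in CD44v6-OE 1 and 2.52 CPM in CD44v6-OE 2. It was 18.1 and 25.6 CPM in CD44s-OE and 0.789 and 0.754 CPM in parental. The parental values are low by the choice of these genes, so only the transfected libraries can be compared with each other. Relative to the HCT116 libraries of the same construct, this was 2.3% in CD44v6-OE 1, 0.147% in CD44v6-OE 2, 1.02% and 1.45% in CD44s-OE, and 0.0497% and 0.0475% in parental. In CD44v6-OE 1 the share was over 1% for 24 of the 25 genes, with a median of 2.12%. GTSF1, for example, was at 165 to 208 CPM in HCT116, at 3.58 CPM in CD44v6-OE 1 and at 0.0442 CPM in CD44v6-OE 2. How this RNA came into the libraries was not tested. For every gene below, its HCT116 part is the share of its CD44v6-OE 1 level that 2.3% of its HCT116 level would make up. It is an estimate that applies 1 share to every gene. Among the 25 genes themselves, the share in CD44v6-OE 1 ran from 0.701% to 5.96%. Counts of called list members are also given without CD44v6-OE 1 and, where it changes them, after subtraction of the HCT116 part. That subtraction was made in every SW480 library, each with its own share given above.

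**Figure D1:**
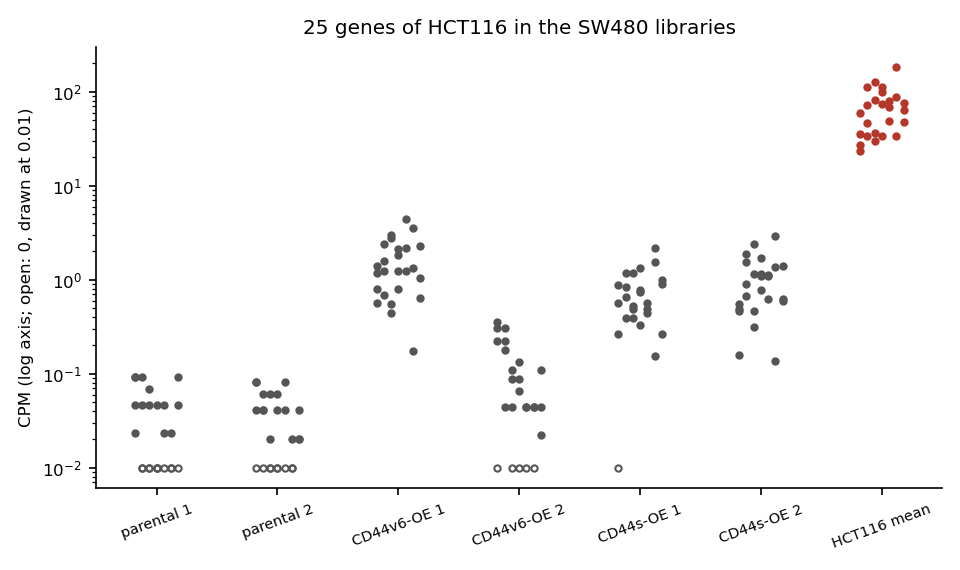
Level of the 25 HCT116 genes (CPM on total counts, log axis) in each SW480 library, with their mean over 6 HCT116 libraries in red; each point is 1 gene and open points are at 0. The genes were chosen to be under 0.1 CPM in parental. CD44v6-OE 1 and the CD44s-OE libraries sit mostly above CD44v6-OE 2, in which 5 genes are at 0.

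Nearly all called differences were rises, and most were in genes at low levels. Of the 17539 tested genes, 71 were called higher (0.405%) and 2 lower (0.0114%), and the median log2 fold change over all tested genes was -0.01. At an unadjusted p under 0.05, 1079 genes were higher and 448 lower. In all 71, both CD44v6-OE libraries were above both parental libraries, as they were in 20.2% of all tested genes, and the deposited variance-stabilized values gave the same order for the 71. In 25 of the 73 called genes both parental libraries were at or under the floor of 6 counts. The mean CD44v6-OE level was under 5 CPM in 51 of the 71 genes and over 20 CPM in 3, the glutathione peroxidase gene GPX2, the lysosomal gene LAPTM5 and CD74.

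**Figure D2:**
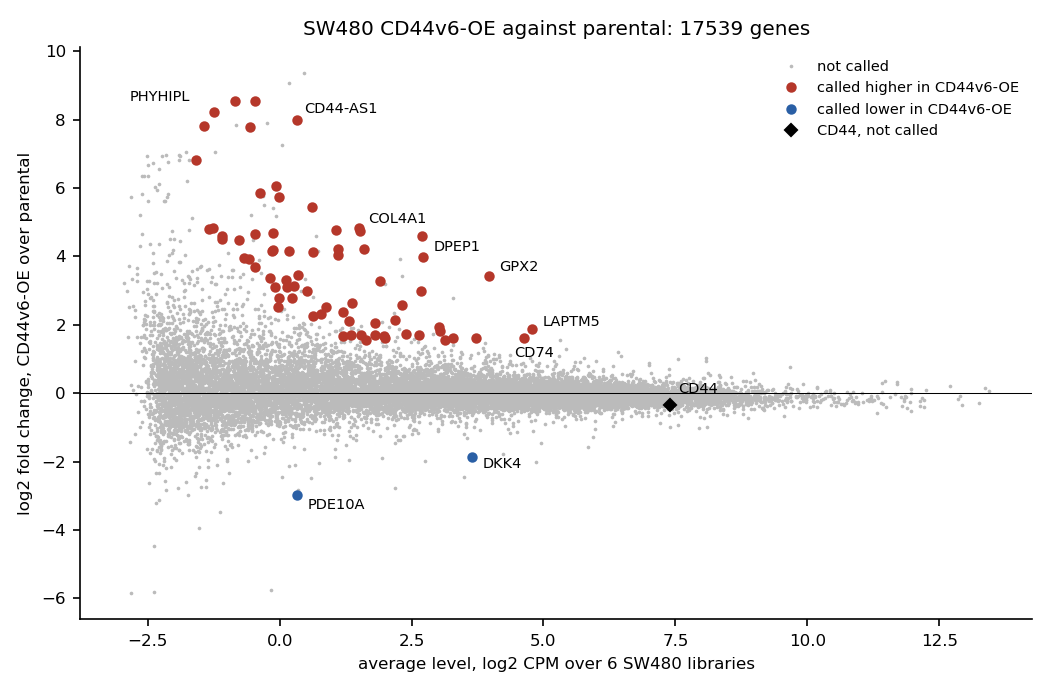
Log2 fold change of CD44v6-OE over parental SW480 against the average level (log2 CPM over 6 SW480 libraries), 1 point per tested gene. The 71 red genes rise at mostly low levels, 2 blue genes fall, and CD44 (diamond) lies just under 0.

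The number of calls depended on which libraries were fitted, and with any library left out fewer remained to estimate the spread. In 70 of the 71 genes called higher with all libraries, CD44v6-OE 2 was over 2 times the higher parental library. The ratio of CD44v6-OE 1 to CD44v6-OE 2 in these 71 genes had a median of 1.26 and ran from 0.572 to 3.56. Both CD44v6-OE libraries went into the call of these genes. Without CD44v6-OE 1, 13 genes were called, and without CD44v6-OE 2, 92. Without parental 1 or 2 the count rose to 344 and 220, and without either CD44s-OE library, which share the estimate of the spread, it fell to 25 and 23. With the 4 compared libraries alone 14 genes were called. The 12 genes that stayed called whichever of the 6 libraries was left out were PHYHIPL, CASC19, CD44-AS1, PCDH19, COL4A1, BAIAP2L2, KLRC2, HMGN5, DPEP1, GPX2, ROBO1 and an unnamed gene (ENSG00000224099). Subtracting the HCT116 part left 72 calls, 70 of them shared with the 73; ALCAM, HERC5 and SAMD9 were lost. The HCT116 part was over 10% of the level in 9 called genes (HERC5, SAMD9, CASC19, ALCAM, PLOD2, PRSS12, SCG2, AP1M2 and KIF5A) and over 50% in 1, HERC5.

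**Figure D3:**
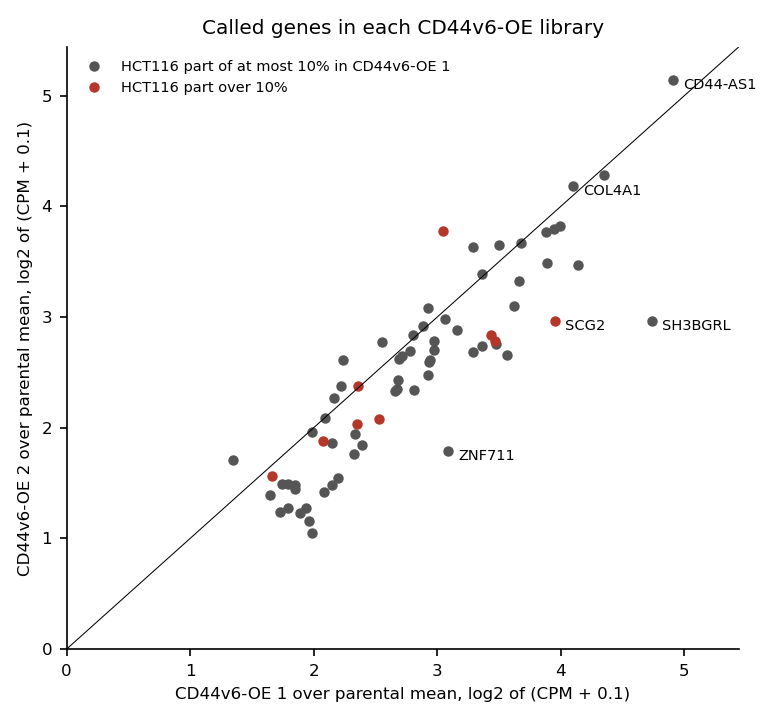
The 71 genes called higher, plotted by their log2 ratio to the parental mean (0.1 CPM added) in CD44v6-OE 1 and CD44v6-OE 2, with the line of equality; red marks an HCT116 part over 10%. All points are above 0 on both axes, and 56 of 71 genes are higher in CD44v6-OE 1.

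Of the called genes, 6 had no parental count, and their fold changes are lower bounds against the floor of 3 read pairs per library. PHYHIPL, whose product is little studied, had 41 and 52 counts in CD44v6-OE, at least 7.95-fold higher than parental. CASC19, a long non-coding RNA gene near MYC, had 34 and 58 counts, at least 7.78-fold higher, with an HCT116 part of 36.9%. PLOD2, a lysyl hydroxylase that modifies collagen, had 46 and 28 counts, at least 6.26-fold higher, with an HCT116 part of 33.6%. CTCFL, a germline paralog of the insulator protein CTCF, had 28 and 28 counts, and PHGR1, an intestinal gene, had 31 and 23, both at least 4.74-fold higher. CDH17, the liver-intestine cadherin, had 16 and 12 counts and was at least 2.37-fold higher. All 6 were also present in both CD44s-OE libraries, at 12 to 86 counts.

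COL4A1 gave 1 of the most regular rises. This gene on chromosome 13 (chr13:110801310-110959504), which encodes the alpha-1 chain of the basement membrane collagen IV, was at 0.203 and 0.162 CPM in parental and at 4.74 and 5.03 CPM in CD44v6-OE, a log2 fold change of 4.74 ± 0.40 (adjusted p = 0.000936). Its HCT116 part was 0.0317%, and it remained called without any single library. CD44s-OE stood at 2.82 and 3.91 CPM and did not differ from CD44v6-OE by the test (adjusted p = 0.581). COL4A2, its partner chain, chosen after its values were seen, was at 64 and 72.3 CPM in parental and 59.9 and 73.4 CPM in CD44v6-OE, and its log2 fold change of -0.03 did not pass. KLRC2, which encodes a receptor of natural killer cells, was at 0.305 and 0.0606 CPM in parental and 3.1 and 3.46 CPM in CD44v6-OE (log2 fold change 4.21 ± 0.54, adjusted p = 0.0142).

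On the X chromosome, 4 of 11 tested genes between 80 and 90 Mb were called higher, the most in any 10 Mb window, with 2 of them called without CD44v6-OE 1. HMGN5, a nucleosome-binding protein gene (chrX:80369198-80457412), was at 0.152 and 0.162 CPM in parental and 3.16 and 2.47 CPM in CD44v6-OE. Its neighbour SH3BGRL (chrX:80457601-80554046) was at 0.102 and 0.162 CPM in parental and 6.09 and 1.71 CPM in CD44v6-OE. Both libraries were thus far above parental for each gene, with SH3BGRL 3.56 times higher in CD44v6-OE 1 than in CD44v6-OE 2. The other adjacent pair was ZNF711, a zinc finger gene (chrX:84498997-84528368), and POF1B, an actin-binding protein gene of epithelia (chrX:84532402-84634722). ZNF711 was at 0.229 and 0.162 CPM in parental and 2.41 and 0.919 CPM in CD44v6-OE. POF1B had 2 and 0 parental counts and 99 and 59 counts in CD44v6-OE. Adjusted p-values for the 4 genes were 0.00327, 0.0301, 0.0637 and 0.0157 in this order. PCDH19, a protocadherin further along the X chromosome (chrX:99546642-99665271), rose from 0.152 and 0.0809 CPM to 3.35 and 2.96 CPM (log2 fold change 4.76 ± 0.45, adjusted p = 0.00212). Across the whole X chromosome 7 of 576 tested genes were called (1.22%), all higher, and the median log2 fold change was -0.01.

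Over all tested genes, 0.405% were called higher and 0.0114% lower, which is the share to set beside each list. The gene lists used below contain genes that earlier results of these data had shown to move. Their counts thus describe the lists and are not independent evidence of a direction.

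**Figure D4:**
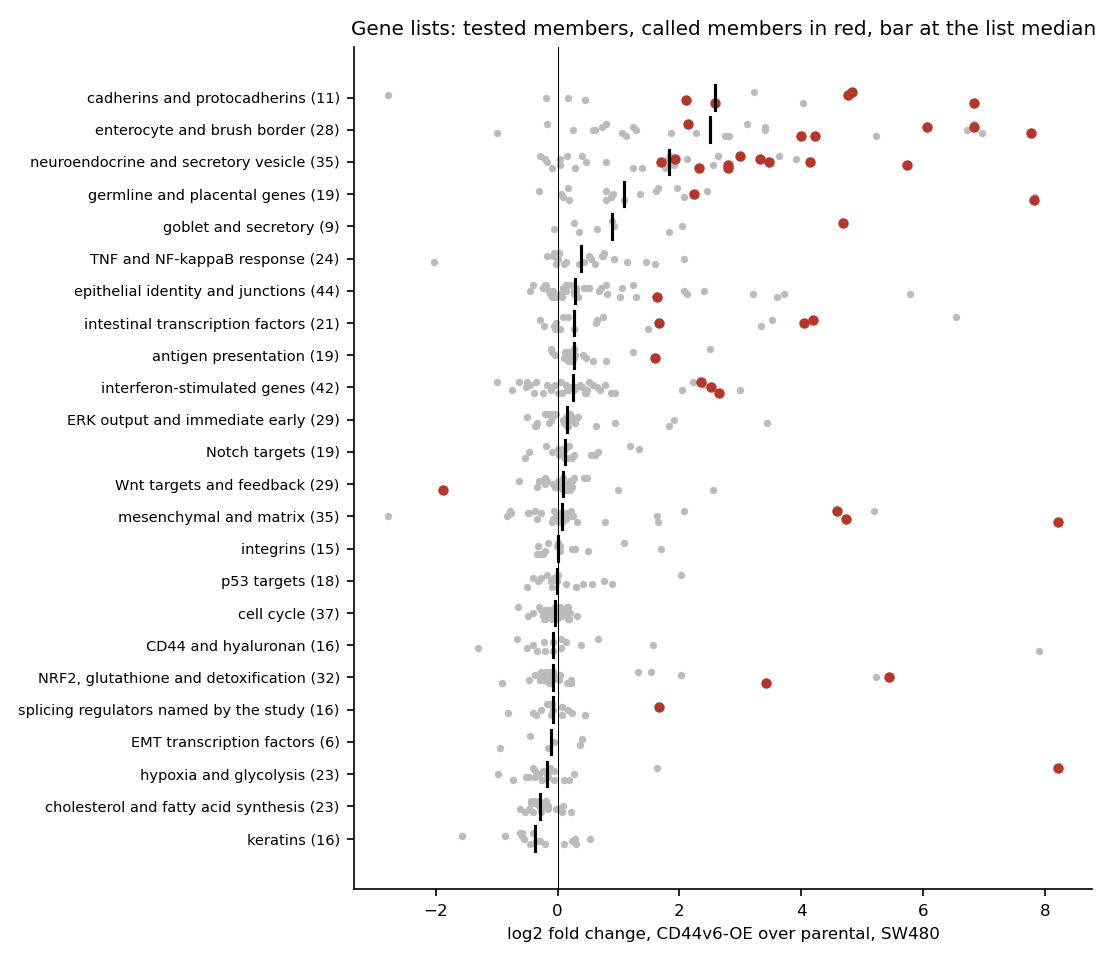
Log2 fold change of CD44v6-OE over parental SW480 for the tested members of 24 gene lists (number tested in brackets), with called members in red and a bar at the list median. The cadherin, enterocyte and neuroendocrine lists have medians of 2.58, 2.51 and 1.84, and the cell cycle, keratin and lipid synthesis lists have no called member.

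Several genes of the enterocyte and brush border list rose, while the general markers of colon epithelium did not. Of the 7 tested colon epithelium markers, 1 had a log2 fold change above 0, the median was -0.21 and 0 were called. Of 28 tested members of the enterocyte and brush border list, 6 were called higher (21.4%) and none lower; the median log2 fold change was 2.51 and 26 were above 0, against a median of -0.01 over all tested genes. DPEP1, a brush border dipeptidase, was at 0.584 and 0.788 CPM in parental and 11.5 and 10.6 CPM in CD44v6-OE (log2 fold change 4.00 ± 0.39, adjusted p = 0.00271). BAIAP2L2, which organizes microvilli, was at 0.28 and 0.162 CPM in parental and 4.66 and 3.5 CPM in CD44v6-OE (4.22 ± 0.44, adjusted p = 0.00327). ATP6V0A4, a proton pump subunit, was at 2.52 and 1.05 CPM in parental and 9.33 and 6.28 CPM in CD44v6-OE (2.14 ± 0.41, adjusted p = 0.0737). CD44v6-OE 1 was the higher of the CD44v6-OE libraries for each of these 3 genes. PHGR1, POF1B and CDH17 completed the called members. Without CD44v6-OE 1, 2 members of this list were called, and after subtraction of the HCT116 part 6. SLC9A3, the apical sodium-proton exchanger, chosen after its values were seen, passed the adjusted p but not the fold threshold: it was at 8.82 and 7.68 CPM in parental and 23.4 and 16.7 CPM in CD44v6-OE.

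Among intestinal transcription factors, 3 of 21 tested genes were called, among them NKX2-5 and DACH1, and 0 without CD44v6-OE 1. NKX2-5, better known from heart development, had 4 and 1 counts in parental and 51 and 51 in CD44v6-OE (adjusted p = 0.0372). DACH1 was at 0.711 and 0.586 CPM in parental and 2.24 and 1.86 CPM in CD44v6-OE (adjusted p = 0.0993). The list as a whole had a median of 0.28. HNF4A and CDX2, chosen after their values were seen, were expressed in parental SW480 at 14.1 to 19 and 66.1 to 92 CPM and had log2 fold changes of -0.28 and -0.23 that did not pass the test. TFF3, a trefoil peptide of goblet cells, was the single called member of 9 tested goblet and secretory genes, and lost its call without CD44v6-OE 1. It had 4 and 0 parental counts and 74 and 42 counts in CD44v6-OE, a ratio of 29.4 with a counting interval of 7.79 to 249 (adjusted p = 0.0641).

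**Figure D5:**
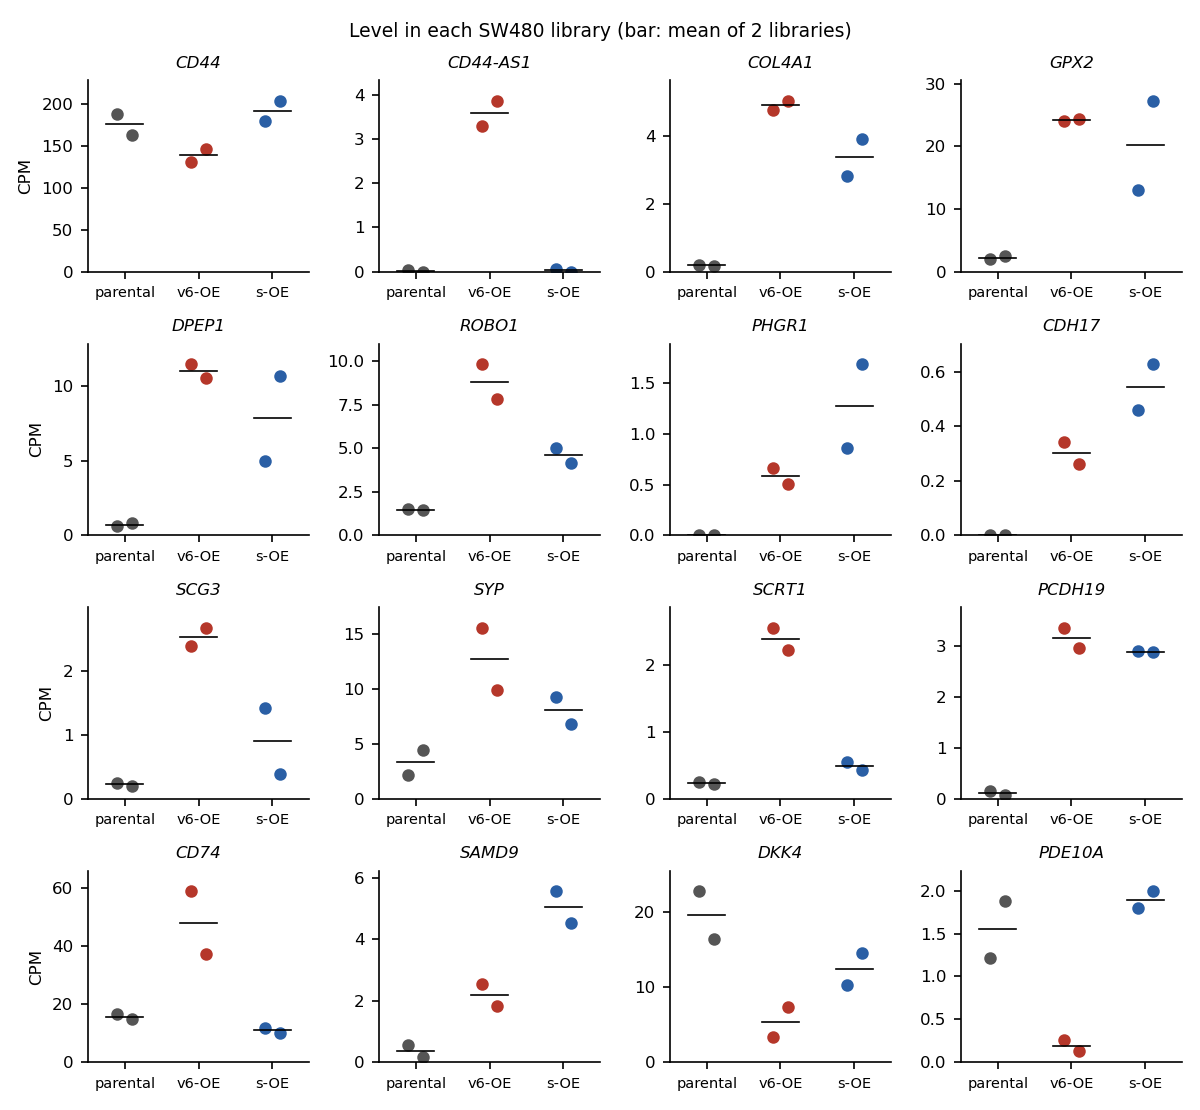
CPM of 16 genes in the 6 SW480 libraries, with 2 points and a bar at their mean for parental, CD44v6-OE (v6-OE) and CD44s-OE (s-OE); every axis starts at 0. GPX2, DPEP1 and PCDH19 are high in both transfected groups, CD44-AS1, SCRT1 and CD74 are high in CD44v6-OE, and PDE10A is low in CD44v6-OE.

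Genes of neuroendocrine cells and secretory vesicles formed the list with the most calls: 10 of 35 tested members were called higher (28.6%), none lower, and the median log2 fold change was 1.84. The secretogranins are cargo of dense-core vesicles. SCG3 was at 0.254 and 0.202 CPM in parental and 2.39 and 2.67 CPM in CD44v6-OE (log2 fold change 3.47 ± 0.61, adjusted p = 0.0475), and its HCT116 part was 0.009%. SCG2 had 2 and 0 counts in parental and 86 and 40 in CD44v6-OE, a ratio of 63.9 with a counting interval of 11.1 to 2560, and its HCT116 part was 30.9%. SCRT1, a zinc finger repressor of neuronal cells, was at 0.254 and 0.222 CPM in parental and 2.56 and 2.23 CPM in CD44v6-OE (3.32 ± 0.46, adjusted p = 0.0207). DNAJC12, a co-chaperone, rose from 0.152 and 0.0404 CPM to 2.22 and 1.14 CPM (adjusted p = 0.0335), and POU3F2, a neural POU factor, from 0.152 and 0.445 CPM to 2.52 and 2.39 CPM (adjusted p = 0.035).

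The remaining called members of that list encode synaptic and neuronal proteins. SYP, the vesicle membrane protein synaptophysin, was at 2.19 and 4.47 CPM in parental and 15.6 and 9.92 CPM in CD44v6-OE (log2 fold change 1.93 ± 0.36, adjusted p = 0.0637). SYN1, synapsin 1, was at 1.19 and 1.31 CPM in parental and 4.42 and 3.70 CPM in CD44v6-OE (1.69 ± 0.31, adjusted p = 0.0552). KIF5A, PPP1R1B and CHRNB2 had log2 fold changes of 2.79, 2.80 and 2.33. Without CD44v6-OE 1 none of the 10 was called, and after subtraction of the HCT116 part all 10 were. CHGA, the chromogranin most used as a neuroendocrine marker and chosen after its values were seen, was at 0.661 and 0.687 CPM in parental and 11.9 and 8.62 CPM in CD44v6-OE but at 6.71 and 0.432 CPM in CD44s-OE, and did not pass (adjusted p = 0.498).

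Many neuronal genes carry an RE1 element, the binding site of the repressor REST and its CoREST partners. The left part of this element (TTCAGCACC, either strand) was found in 132 of 34943 RefSeq promoters (0.378%), each taken from 250 bases before to 50 after the start. It was found in 2 of the 6 called list members with a promoter sequence. Here and for the motifs below, list members were counted per gene with a match in any promoter. The background was counted per promoter, so these shares are in unlike units. These windows are shown because they are the 2 matches, with the motif in capitals; they lie at chr15:51681501-51681529 (plus strand) and chrX:47620072-47620100 (minus strand) of GRCh38.p14.
SCG3: tcacaggaacTTCAGCACCcacagggcgg
SYN1: cactgccagcTTCAGCACCgcggacagtg

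Relative to the annotated start, the match lies at -233 in SYN1 and at 8 in SCG3. REST itself, chosen after its values were seen, was at 13.6 and 15.5 CPM in parental and 20.2 and 18.1 CPM in CD44v6-OE, and its log2 fold change of 0.40 ± 0.22 did not pass (adjusted p = 0.677). RCOR2, a CoREST family gene, was called higher, at 1.17 and 1.25 CPM in parental and 4.91 and 3.06 CPM in CD44v6-OE (log2 fold change 1.72 ± 0.34, adjusted p = 0.0855).

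Adhesion and matrix genes gave few but large rises. In the list of cadherins, protocadherins and related adhesion receptors, 5 of 11 tested genes were called higher (45.5%): PCDH19, CDH12, CDH17, ROBO1 and ALCAM. The count was 2 (PCDH19 and ROBO1) without CD44v6-OE 1 and 4 after subtraction of the HCT116 part. ROBO1, the receptor of SLIT guidance cues, was at 1.52 and 1.42 CPM in parental and 9.83 and 7.81 CPM in CD44v6-OE (log2 fold change 2.58 ± 0.28, adjusted p = 0.00327). CDH12, a neuronal cadherin, had 0 and 2 counts in parental and 34 and 31 in CD44v6-OE, a ratio of 33.5 with a counting interval of 5.61 to 1360. ALCAM rose from 1.3 and 0.647 CPM to 4.42 and 3.85 CPM, but its estimated HCT116 part was 35.1%, and after subtraction its adjusted p was 0.134. Of 35 tested mesenchymal and matrix genes 3 were called, COL4A1, PLOD2 and LUM (COL4A1 alone without CD44v6-OE 1), and the list median was 0.07. LUM, the keratan sulfate proteoglycan lumican, had 1 and 1 counts in parental and 32 and 24 in CD44v6-OE (adjusted p = 0.0552), and is 1 of the 10 fibroblast markers examined, whose summed level was 10.8 to 14.3 CPM in parental and 16.9 to 17.7 CPM in CD44v6-OE.

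Detoxification genes of the epithelium were represented by 2 of 32 tested members of the NRF2 and glutathione list, of which GPX2 alone stayed called without CD44v6-OE 1. GPX2, the gastrointestinal glutathione peroxidase, was at 1.93 and 2.55 CPM in parental and 24 and 24.4 CPM in CD44v6-OE, a rise of 3.43 ± 0.34 on the log2 scale (adjusted p = 0.00327) that remained called without any single library. AKR1C3, an aldo-keto reductase of steroid and prostaglandin metabolism, had 4 and 0 counts in parental and 104 and 91 in CD44v6-OE, a ratio of 49.7 with a counting interval of 13.4 to 416. Its paralogs AKR1C1 and AKR1C2, among which reads can be split, had log2 fold changes of -0.92 and 0.22 that did not pass the test. NQO1, an abundant NRF2 target at 138 to 160 CPM in these 4 libraries, had a log2 fold change of -0.13. The last 3 were chosen after their values were seen, and the list median was -0.08. The antioxidant response motif searched (TGACNNNGC, either strand) was in 13.3% of all promoters and in GPX2 but not AKR1C3.

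In the interferon list 3 of 42 tested genes were called higher (7.14%) and the median was 0.26. TNFSF10, the death receptor ligand TRAIL, was at 0.559 and 0.809 CPM in parental and 3.42 and 3.68 CPM in CD44v6-OE (log2 fold change 2.36 ± 0.37, adjusted p = 0.0335), with an HCT116 part of 0.434%. SAMD9 was at 0.559 and 0.162 CPM in parental and 2.56 and 1.84 CPM in CD44v6-OE. HERC5, the ligase that attaches ISG15, was at 0.203 and 0.364 CPM in parental and 1.86 and 1.47 CPM in CD44v6-OE. For SAMD9 and HERC5 the HCT116 parts were 46.7% and 168%, a value over the whole measured level, and after subtraction the adjusted p-values were 0.135 and 0.914, leaving TNFSF10 as the 1 called gene. With CD44v6-OE 1 left out, none of the 3 was called, and the adjusted p of TNFSF10 was 0.294. ISG15 and MX1, chosen after their values were seen, had log2 fold changes of -0.17 and 0.27 that did not pass. The interferon response motif searched (GAAANNGAA, either strand) was in 8.1% of all promoters and in the promoters of all 3 called genes. For TNFSF10 the match nearest to the start is shown, at chr3:172523466-172523494 (GRCh38.p14, minus strand), at -54 from the start, with the motif as its reverse complement in capitals.
TNFSF10: aaacaactcaTTCGCTTTCatttcctcac

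CD74, the invariant chain of MHC class II, had the smallest adjusted p against CD44s-OE among the 73 called genes. It was at 16.5 and 15 CPM in parental, 58.7 and 37.1 CPM in CD44v6-OE and 11.9 and 10.2 CPM in CD44s-OE. CD44v6-OE was higher than parental by 1.60 ± 0.23 (log2, adjusted p = 0.0247) and higher than CD44s-OE by 2.12 (adjusted p = 0.0013). It was the single called member of 19 tested antigen presentation genes (none without CD44v6-OE 1, where its adjusted p was 0.332), whose median was 0.27. CD74 and LAPTM5 also belong to the 11 leukocyte markers examined, whose summed level was 23.9 to 30.6 CPM in parental, 72.4 to 113 CPM in CD44v6-OE and 51.6 to 54.0 CPM in CD44s-OE, with PTPRC, CD3D and CD3E under 0.5 CPM throughout. LAPTM5 was at 14.1 and 6.73 CPM in parental and 46.5 and 29.2 CPM in CD44v6-OE (1.87 ± 0.35, adjusted p = 0.0923). SYP and SYN1 are likewise 2 of the 10 neuron markers, which summed to 57.1 to 79.2 CPM in parental and 87.5 to 89.3 CPM in CD44v6-OE.

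The germline and placental list had 2 called genes of 19 tested, CTCFL and PSG8, and none when CD44v6-OE 1 was left out. PSG8, a pregnancy-specific glycoprotein gene, was at 0.483 and 0.728 CPM in parental and 2.90 and 2.89 CPM in CD44v6-OE (log2 fold change 2.24 ± 0.39, adjusted p = 0.0472), although the near-identical genes of this family may share reads. Among 16 splicing regulators named by the study, RBM47 alone was called, and not without CD44v6-OE 1. This RNA-binding protein gene was at 1.70 and 2.00 CPM in parental and 7.50 and 4.25 CPM in CD44v6-OE (1.66 ± 0.34, adjusted p = 0.0921), with an HCT116 part of 3.56%.

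Genes by which the study followed epithelial and mesenchymal states did not pass the test between CD44v6-OE and parental SW480: none of SPARC, ZEB1, VIM, IL32, CSF2, MAL2, ESRP1, CDH1, EPCAM and KDF1 was called. EPCAM was at 243 and 244 CPM in parental and 255 and 203 CPM in CD44v6-OE, and ESRP1 at 37.6 and 30.6 against 47.4 and 45.3 CPM. ZEB1, the repressor of epithelial genes, was at 9.20 and 7.84 CPM in parental and 7.95 and 7.27 CPM in CD44v6-OE, and VIM at 1090 and 733 against 786 and 632 CPM. SPARC, a matrix protein, had the largest log2 fold change of these 10 genes, 1.63 ± 0.41 (adjusted p = 0.182). For CDH1 the replicates varied more than the groups, with 6.48 and 17.2 CPM in parental and 5.17 and 15.7 CPM in CD44v6-OE. Of 44 tested epithelial and junction genes AP1M2 was called, a clathrin adaptor of epithelial sorting at 5.23 and 5.40 CPM in parental and 17 and 15.9 CPM in CD44v6-OE (1.63 ± 0.25, adjusted p = 0.0301, HCT116 part 14.1%), and its adjusted p without CD44v6-OE 1 was 0.332. None of the 6 tested EMT transcription factors was called.

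The CD44s-OE cells differed from CD44v6-OE at several of these same genes. EPCAM was at 70.5 and 69.2 CPM, ESRP1 at 7.68 and 4.6 CPM, MAL2 at 4.94 and 2.38 CPM and KDF1 at 2.87 and 3.15 CPM in CD44s-OE. CD44v6-OE was higher by 1.71, 2.92, 3.15 and 2.38 on the log2 scale, with adjusted p-values of 0.000565, 0.000367, 0.00082 and 0.000383. ZEB1 was at 26.4 and 14.4 CPM in CD44s-OE, and CD44v6-OE was lower by 1.42 (log2 fold change -1.42, adjusted p = 0.0286). Of the 73 genes called against parental, 9 differed between the 2 isoforms at an adjusted p under 0.1, as did 2.12% of all tested genes, but both contrasts use the CD44v6-OE libraries, so that these shares cannot be set against each other. They were higher in CD44v6-OE for CD44-AS1, CD74, SCRT1, CCDC92B, FAIM2, AP1M2, MAPK8IP1 and PSG8, and lower for PDE10A. For the remaining called genes, the missed threshold does not show that the isoforms act alike. In 67 of the 71 genes called higher, both CD44s-OE libraries were also above both parental libraries. Of the called genes, 49 were called higher in CD44s-OE against parental as well, so most rises were not particular to CD44v6-OE. In 38 of the 71, both CD44s-OE libraries were below both CD44v6-OE libraries. The 2 contrasts share the parental libraries. In CD44s-OE, COL4A1, GPX2, DPEP1 and PCDH19 were at 2.82 to 3.91, 13 to 27.3, 5.00 to 10.7 and 2.87 to 2.89 CPM, all above the parental libraries.

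The 2 genes called lower were PDE10A and DKK4. PDE10A, a phosphodiesterase of cyclic nucleotides, was at 1.22 and 1.88 CPM in parental, 0.256 and 0.131 CPM in CD44v6-OE and 1.80 and 1.99 CPM in CD44s-OE. It fell by 2.98 on the log2 scale (SE 0.50, adjusted p = 0.0369) and was also lower than in CD44s-OE (adjusted p = 0.00778). DKK4, a secreted Wnt antagonist and Wnt target, was at 22.7 and 16.4 CPM in parental and 3.33 and 7.31 CPM in CD44v6-OE, a decrease at the edge of the threshold (log2 fold change -1.88 ± 0.36, adjusted p = 0.0898). Both lost their call without CD44v6-OE 1 or either CD44s-OE library, and PDE10A also without CD44v6-OE 2. DKK4 was the single called gene of 29 tested Wnt targets, whose median was 0.08. Below the fold threshold, IQGAP2, CHI3L1 and RASGRP3 were lower at an adjusted p under 0.1, with log2 fold changes of -0.85, -1.10 and -1.19. DESeq2 called 10 genes lower, and by its smallest adjusted p-values LYPD1, SLC26A4, KRT81 and GGT5 joined PDE10A and DKK4. For LYPD1 the parental libraries were themselves far apart, at 0.254 and 2.35 CPM, against 0.0427 and 0 CPM in CD44v6-OE.

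No member was called in the lists of CD44 and hyaluronan genes (16 tested), keratins (16), EMT transcription factors (6), TNF and NF-kappaB response (24), ERK output (29), Notch targets (19), cell cycle (37), integrins (15), cholesterol and fatty acid synthesis (23) and p53 targets (18). MKI67 and MCM7, proliferation genes, had log2 fold changes of -0.23 and -0.01. KRT8 and KRT18, the main keratins of simple epithelia, were at 11000 and 9780 and at 6390 and 6010 CPM in parental and at 8460 and 7810 and at 4830 and 4570 CPM in CD44v6-OE, lower in both libraries without passing the test (adjusted p = 0.694 and 0.61). PLOD2 was the 1 called member of 23 tested hypoxia and glycolysis genes (0 without CD44v6-OE 1), whose median was -0.17.

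The same contrast was examined in the HCT116 libraries, although RNA typical of HCT116 was also present in CD44v6-OE 1 of SW480. Of the 71 genes called higher in SW480, 47 were tested in HCT116, where 5 were called higher between CD44v6-OE and parental: CD44-AS1, SAMD9, TNFSF10, DPEP1 and DEPP1 (0.738% of all genes tested in HCT116 were). DPEP1 was at 1.19 and 2.74 CPM in HCT116 parental and 19 and 21.3 CPM in HCT116 CD44v6-OE (log2 fold change 3.30, adjusted p = 0.0927). SAMD9, whose SW480 call was lost after subtraction of the HCT116 part, rose there by 3.90 (adjusted p = 0.000259), from 3.41 and 3.53 CPM to 52.4 and 54.8 CPM. In 40 of the 71 genes the mean level of parental HCT116 was under 0.5 CPM. The change itself differed between the lines at an adjusted p under 0.1 for 18 of the 73 called genes and for 0.409% of all genes tested, and since the difference contains the SW480 change by which the 73 were called, nothing is read from the higher share. COL4A1, at 0.133 and 0.095 CPM in HCT116 parental and 0.077 and 0.0578 CPM in HCT116 CD44v6-OE, rose by 5.55 more in SW480 on the log2 scale (adjusted p = 0.00861), and HMGN5 and PCDH19 by 4.33 and 5.15 more (adjusted p = 0.00287 and 0.00861).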

How the data were processed

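RNA from 12 cell line libraries was sequenced; the 6 SW480 libraries entered the main fit and the 6 HCT116 libraries the comparison between lines. The authors filtered the reads with SOAPnuke, aligned them to hg19 with STAR 2.7.9a, marked duplicates with Sambamba and deposited raw counts per GENCODE gene from featureCounts (Subread 2.0.3), strand-specific, with duplicates not dropped by any option in the file header. They also deposited log2-scale variance-stabilized values made with DESeq2 1.30.1, which were used here only for the order of the libraries. Groups were taken from the sample titles.

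Counts were tested with edgeR 4.0.16 (R 4.3.3; TMM scaling, filterByExpr, robust quasi-likelihood test, p-values adjusted by Benjamini-Hochberg over every gene tested; a call required an adjusted p under 0.1 together with a log2 fold change beyond 1.5 in either direction). SE is the absolute log2 fold change divided by the square root of F. CPM in SW480 is scaled by TMM and CPM in HCT116 by total counts. DESeq2 1.42.0, other scalings and filters, a replicate block and the omission of each library were tried, and the script was tested on simulated data. The HCT116 subtraction and the counts of list and window members without CD44v6-OE 1 were added after the data had been seen.

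Earlier results of these data were known when the members were chosen, by label alone, and when the gene lists were written. Named genes are CD44, CD44-AS1, genes the study names, the 12 largest rises among called genes at an average log2 CPM of at least 0, genes called lower, up to 5 called members per list, up to 6 genes lower by DESeq2, called genes of the fullest 10 Mb window and the 2 most abundant members of lists without calls. Other genes, among them RCOR2, LAPTM5, FAIM2, CCDC92B, MAPK8IP1 and DEPP1, were named after their values were seen. A few genes that the naming rule selects are not reported here. Replicate numbers did not pair the libraries: deviations from the group means correlated at 0.123 (parental and CD44v6-OE), -0.242 (parental and CD44s-OE) and -0.143 (CD44s-OE and CD44v6-OE) over 9036 genes. Promoter sequences are RefSeq's on GRCh38.p14; exons are GENCODE's on hg19.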

Additional observations from a re-analysis of the deposited data

Results flagged for a closer look

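For 20 named genes the change from parental to CD44v6-OE differed between SW480 and HCT116 in an interaction test over all 12 libraries (edgeR, adjusted p under 0.1). The HCT116 part was not subtracted for this test. It was over 10% for SCG2, KIF5A, PLOD2, ALCAM, AP1M2, PRSS12 and CASC19, and ALCAM lost its SW480 call after subtraction. How far it adds to their differences was not tested. Most of the 20 genes were called by their SW480 change, which is part of the difference, so nothing is read from their number. Values are log2 fold changes in SW480 minus those in HCT116. Among adhesion and matrix genes they were 5.55 for COL4A1, 5.15 for PCDH19, 7.79 for PLOD2 and 1.72 for ALCAM. On the X chromosome they were 4.33 for HMGN5 and 4.8 for SH3BGRL. In the neuroendocrine list they were 5.36 for SCG2, 4.04 for DNAJC12 and 2.83 for KIF5A, and in the enterocyte list 2.97 for BAIAP2L2. AP1M2, of epithelial sorting, differed by 1.94.

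Genes outside these lists differed by 8.48 for CASC19, 4.94 for RASSF6, 4.68 for KLRC2, 4.62 for PRSS12, 3.83 for METTL7A and 2.96 for NXPH3. The difference was negative for PDE10A (-3.95), RASGRP3 (-3.45) and IQGAP2 (-1.49). PLOD2 and CASC19 had no count in parental SW480, so the size of their differences depends on the prior count.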

How the results depend on the processing

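The 73 calls became 289 without a filter on low counts, 40 with a mean count of at least 50, 166 with DESeq2, 14 with the 4 compared libraries alone, 133 with all 12 libraries, 43 at an adjusted p under 0.05 and 177 at an unadjusted p under 0.01 with a log2 fold change over 2. Leaving out each library gave 13 to 344 calls, and 80.2% to 100% of them were higher in CD44v6-OE (97.3% as reported, and 100% with the 4 libraries). All 73 were among the DESeq2 calls. With the replicate number as a block 70 genes were called, 67 higher and 3 lower, 66 of them shared with the 73; the libraries share only a number. Single genes changed sign only on leaving out a library: IL32 ranged from -0.22 to 2.62, CDH1 from -1.18 to 0.68 and EPCAM from -0.26 to 0.08, none of them called as reported. Over 91 single genes and all alternatives, 1080 values stayed the same, 306 became weaker, 23 became stronger and 4 reversed. The weaker values include some of genes that had no call to lose. CDH1 without CD44v6-OE 1 (0.40), CDH1 without parental 2 (0.68) and EPCAM without CD44v6-OE 2 (0.08) were among the 4 reversed. The cause was not tested. With 2 libraries per group, and parental counts of at most 6 per library in 25 called genes, the size of many rises is known only within wide counting intervals.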
